A study of Homo sapiens with 12 samples.

Results

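Transcripts of 10 interleukin 1 family genes were followed across 12 libraries from xenograft tumours grown from Cal33 cells, an established line from a squamous carcinoma of the human head and neck. The genes are the cytokines IL1A, IL1B, IL36G, IL18 and IL33, the receptor antagonists IL1RN and IL36RN, and the receptors IL1R1, IL1RAP and IL1R2. They were chosen by name, as the rows whose Ensembl identifier maps to these symbols, and all 10 were found among the 60649 gene rows of each deposited count table. The libraries form 2 experiments. In the first, 3 samples labelled smTEADi, from tumours given the compound SW-682, were compared with 3 labelled Vehicle. In the second, 3 pTEADi samples marked DOX+ were compared with 3 Control samples marked DOX-. Both treatments are named as inhibitors of TEAD, the DNA-binding partner of the co-activators YAP and TAZ. Because pTEADi was labelled DOX+ and Control DOX-, doxycycline and pTEADi cannot be told apart. The labels give no dose, time, host strain or age, leave unsaid if each sample is its own animal or if pTEADi cells are a clone, and name no promoter for pTEADi.

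Interleukin 1 alpha and beta, encoded by IL1A and IL1B, bind the receptor IL1R1, which then recruits the shared co-receptor IL1RAP and signals through MYD88 and IRAK kinases to NF-kB. The antagonist encoded by IL1RN occupies IL1R1 without recruiting the co-receptor, and IL1R2 is a decoy that binds ligand without signalling. Interleukin 36 gamma (IL36G) acts in the same way on IL1RL2 with IL1RAP, and IL36RN is its antagonist. Squamous epithelium keeps stores of interleukin 1 alpha, interleukin 18 and the antagonists, and releases them when cells are damaged.

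Libraries held 13576494 to 15433679 expected counts, and replicates of a group correlated at r = 0.981 to 0.992 in log2 CPM across genes. Levels in CPM are counts relative to library size, scaled by TMM over all 12 libraries, log2 fold changes are given ± SE with the treated group on top, and adjusted p-values come from the quasi-likelihood test of edgeR, with Benjamini-Hochberg adjustment over all genes tested. A gene was said to rise or fall when its adjusted p was under 0.05. By that rule 5.5% of 14829 genes were called with smTEADi and 26.3% of 14705 with pTEADi. The YAP/TAZ target CCN1 fell in both experiments (-1.52 ± 0.20, adjusted p = 0.0365 with smTEADi, and -1.42 ± 0.21, adjusted p = 0.000624 with pTEADi). CCN1 lies outside the rule for named genes given below, and other YAP/TAZ targets are not given here. In bulk tumour RNA, fewer cells of a type and less RNA per cell cannot be told apart. Squamous markers were all detected (10 of 10), at 42600 to 59800 CPM in sum in smTEADi and 55500 to 75400 in Vehicle, and 65700 to 78400 in pTEADi and 66700 to 79800 in Control.

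Of the genes studied, 5 lie in the interleukin 1 cluster of chromosome 2 (GRCh38). In order along the plus strand these are IL1A (ENSG00000115008.6, 112773925 to 112784493, minus strand), IL1B (ENSG00000125538.12, 112829751 to 112836816, minus), IL36G (ENSG00000136688.11, 112973203 to 112985658, plus), IL36RN (ENSG00000136695.15, 113058638 to 113065382, plus) and IL1RN (ENSG00000136689.19, 113099315 to 113134016, plus). The receptor genes IL1R2 (ENSG00000115590.14, 101991960 to 102028544, plus) and IL1R1 (ENSG00000115594.12, 102064544 to 102179874, plus) lie elsewhere on chromosome 2. IL1RAP (ENSG00000196083.10) is on chromosome 3 at 190514051 to 190659750, plus strand. IL33 (ENSG00000137033.12) is on chromosome 9 at 6215786 to 6257983, plus strand, and IL18 (ENSG00000150782.12) on chromosome 11 at 112143253 to 112164096, minus strand. IL18, IL1R1 and IL36G overlap genes on the opposite strand. In that order these are an unnamed protein-coding gene with at most 13 counts in any library, IL1R1-AS1 with 0 and the pseudogene HMGN2P23 with 0. The strand setting of the counting is not given in the sources used here.

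Promoter windows of the cluster genes that rose or fell with pTEADi are printed to show the sequence at each start, 250 bases before to 50 bases after it, 5′ to 3′ on the gene's strand. They come from RefSeq (GRCh38.p14), which gave windows for 9 of the 10 genes, and where RefSeq lists several starts the first listed is shown. Capitals mark matches to the AP-1 motif TGANTCA. The windows are chr2:112784444-112784743 for IL1A, chr2:112836730-112837029 for IL1B, chr2:112977756-112978055 for IL36G and chr2:113117721-113118020 for IL1RN.
IL1A: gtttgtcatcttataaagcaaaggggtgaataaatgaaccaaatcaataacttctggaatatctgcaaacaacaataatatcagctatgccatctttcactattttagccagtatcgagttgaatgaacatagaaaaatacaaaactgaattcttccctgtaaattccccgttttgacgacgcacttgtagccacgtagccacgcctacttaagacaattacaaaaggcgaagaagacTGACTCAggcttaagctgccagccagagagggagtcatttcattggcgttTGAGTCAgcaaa
IL1B: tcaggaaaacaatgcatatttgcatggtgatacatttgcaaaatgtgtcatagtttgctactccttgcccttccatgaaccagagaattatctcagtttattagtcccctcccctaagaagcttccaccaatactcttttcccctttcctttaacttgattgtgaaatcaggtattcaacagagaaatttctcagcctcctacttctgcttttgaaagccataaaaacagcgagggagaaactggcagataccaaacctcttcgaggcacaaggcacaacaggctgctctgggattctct
IL36G: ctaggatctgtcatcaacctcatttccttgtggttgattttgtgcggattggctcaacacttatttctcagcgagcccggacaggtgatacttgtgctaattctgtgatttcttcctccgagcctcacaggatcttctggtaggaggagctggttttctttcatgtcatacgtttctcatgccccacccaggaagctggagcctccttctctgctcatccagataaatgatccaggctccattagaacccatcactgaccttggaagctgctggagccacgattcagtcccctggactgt
IL1RN: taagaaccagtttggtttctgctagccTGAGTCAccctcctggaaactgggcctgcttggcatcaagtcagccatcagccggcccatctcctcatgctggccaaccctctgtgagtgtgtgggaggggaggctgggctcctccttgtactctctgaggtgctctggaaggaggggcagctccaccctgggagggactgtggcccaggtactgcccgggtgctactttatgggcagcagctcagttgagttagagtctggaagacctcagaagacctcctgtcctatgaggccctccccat

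The IL1A window held 2 AP-1 matches, the IL1RN window 1, and the IL1B and IL36G windows none. A match to TGANTCA, a palindrome with N in its centre and so the same on both strands, was present in 7.71% of 35116 RefSeq windows of this length. The TEAD motif GGAATG, searched on both strands, was present in 14% of windows and in none of these 4. An NF-kB motif, on both strands, was present in 25.6% and also in none of the 4. Among the other windows of the family, AP-1 matches stood only in window 2 of IL1A, which overlaps the window printed for that gene. Windows 2 and 3 of IL1RN held none. A TEAD match stood in 1 of 4 windows of IL1R1 and in 1 of 2 of IL36RN. NF-kB matches stood in 1 of 4 windows of IL1R1, 1 of 2 of IL1R2 and both of IL36RN, and 2 matches in the 1 window of IL1RAP. These are letter matches, and binding was not measured.

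IL1RN was the most abundant of the 10 transcripts in every group. On a scale that divides by merged exon length and sums to the same total in each library (TPM), it averaged 393 ± 143 in smTEADi and 209 ± 11.5 in Vehicle, and 339 ± 35.9 in pTEADi and 169 ± 51.9 in Control (SD, n = 3 each). IL18 was next in all 4 groups, at 48.1 ± 7.23 TPM in smTEADi and 57.3 ± 6.26 in Vehicle, and at 51.2 ± 5.79 in pTEADi and 56.1 ± 2.22 in Control, with no overlap between the libraries of IL18 and those of its neighbours in the order. Then came IL36RN, IL1RAP, IL1A and IL1R1 in smTEADi and Vehicle, at group means of 10.2 to 21.2 TPM. Adjacent ranks overlapped there between IL36RN and IL1RAP and between IL1R1 and IL1A, and in Vehicle also between IL36RN and IL1A. IL1B took the third rank only in Control, at 25 ± 16.3 TPM, a range that overlapped that of IL1A at 21.9 ± 13.5. It ranked seventh in smTEADi, Vehicle and pTEADi. IL36G, IL33 and IL1R2 were at or below 8.03 TPM on average in all groups.

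**Figure D1:**
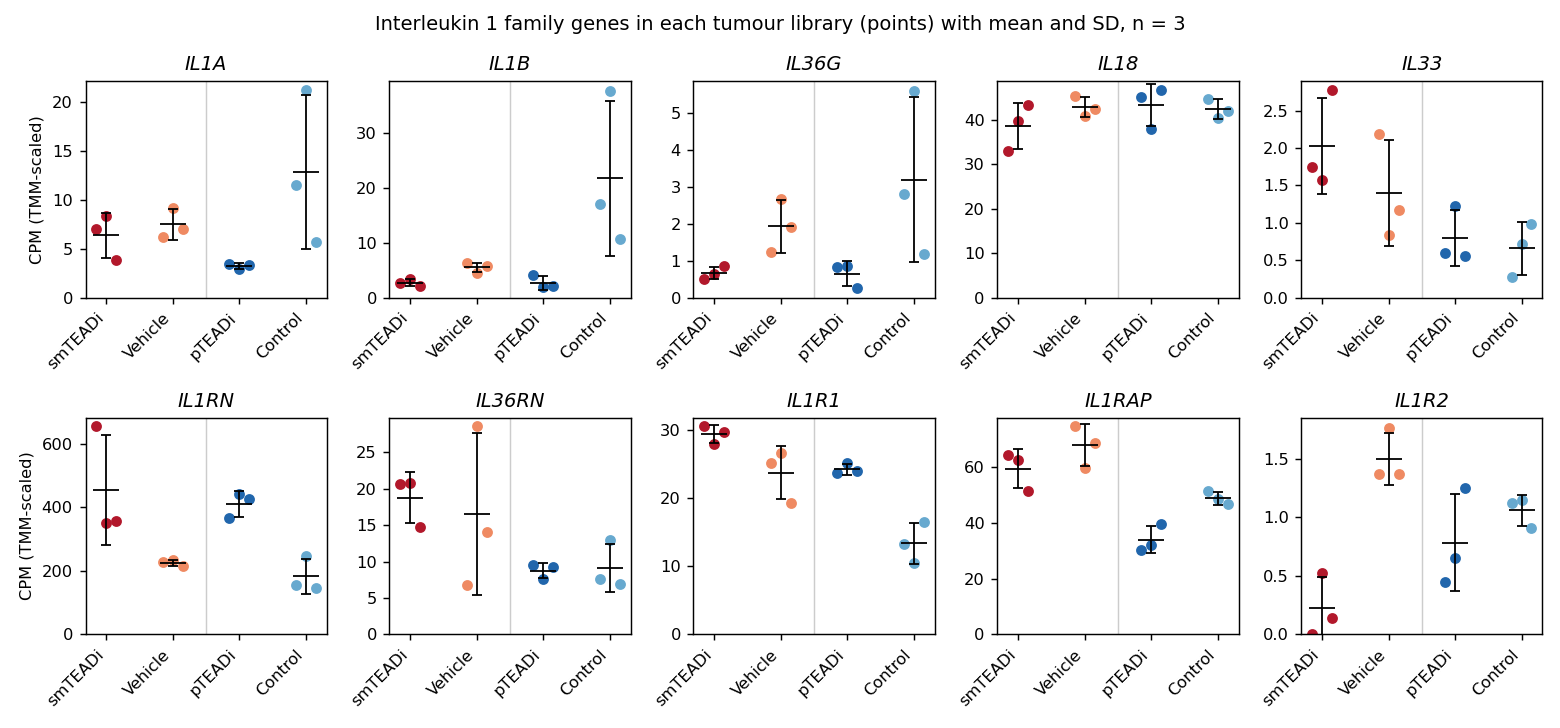
CPM (vertical axis, from 0) of each gene in smTEADi, Vehicle, pTEADi and Control libraries, with points for libraries and bars for mean and SD (n = 3). Control 2 is the highest Control library for IL1A, IL1B, IL36G, IL1RN and IL36RN, and smTEADi 1 stands at 655 CPM for IL1RN against 352 and 358 CPM in the other smTEADi libraries.

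IL1B, which encodes the inducible cytokine cut to its active form by caspase 1, fell strongly with pTEADi. It had 4.07, 1.88 and 2.08 CPM in the pTEADi libraries, against 17, 37.6 and 10.6 CPM in the Control libraries. Every pTEADi library was below every Control library, and Control 2 was far above the other Control libraries. The log2 fold change was -3.02 ± 0.44 (adjusted p = 0.000536), and without Control 2 it was -2.37 (adjusted p = 1.47e-05). Over all alternatives the adjusted p ranged from 3.96e-55 to 0.00922.

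With smTEADi, IL1B had 2.78, 3.41 and 2.13 CPM, against 6.24, 4.57 and 5.77 CPM with Vehicle. The groups did not overlap here either. The log2 fold change of -0.99 ± 0.25 (95% interval -1.55 to -0.42) did not pass the threshold (adjusted p = 0.0525). It passed with DESeq2 (adjusted p = 0.0189), without the low-count filter (0.0148) and without Vehicle 2 (0.0375), in a range of 0.0148 to 0.211 over the alternatives. Treated libraries of both experiments lay between 1.88 and 4.07 CPM, while Control libraries lay above all Vehicle libraries. Vehicle and Control belong to separate experiments and were not tested against each other.

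IL1A, whose product is active without cleavage and is held in epithelial cells, differed between the experiments in its call. It fell with pTEADi, to 3.46, 2.96 and 3.33 CPM, against 11.5, 21.2 and 5.67 CPM in Control. The pTEADi libraries were close together and below the lowest Control library. The log2 fold change was -1.97 ± 0.38 (adjusted p = 0.00302), and the call held in each fit without 1 library (-2.33 to -1.40). With smTEADi, IL1A had 7.01, 8.32 and 3.83 CPM, against 6.24, 9.21 and 7 CPM with Vehicle. These groups overlapped, and the log2 fold change was -0.22 ± 0.28 (95% interval -0.86 to 0.42, adjusted p = 0.65). The direct test of the difference between the effects gave -1.75 ± 0.55 for IL1A (unadjusted p = 0.00655, adjusted p = 0.516) and -2.04 ± 0.60 for IL1B (unadjusted p = 0.00426, adjusted p = 0.503), so neither passed. Without the low-count filter both passed (adjusted p = 2.13e-06 for IL1A and 4.23e-08 for IL1B), in ranges up to 0.862 and 0.819 over all alternatives.

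IL36G, an alarm cytokine of squamous epithelium, was a low transcript that fell with pTEADi. It had 0.828, 0.866 and 0.278 CPM with pTEADi, against 2.8, 5.6 and 1.19 CPM in Control, which were 4 to 12 counts per pTEADi library and 17 to 78 per Control library. The groups did not overlap and Control 2 was again the highest. IL36G reached 10 counts in 2 of 3 pTEADi and 3 of 3 Control libraries, so it met the low-count filter only through the group where it was higher, and likewise with smTEADi only through Vehicle. Its change was -2.27 ± 0.58 on the log2 scale (adjusted p = 0.0126). It was -1.60 without Control 2 (adjusted p = 0.0435), and the call was lost without pTEADi 3 (-1.89, adjusted p = 0.0673). Over all alternatives the adjusted p ranged from 2.39e-07 to 0.0673. With smTEADi, IL36G had 0.511, 0.655 and 0.851 CPM, against 1.23, 2.67 and 1.92 CPM with Vehicle. These groups did not overlap, and the log2 fold change of -1.51 ± 0.41 did not pass (95% interval -2.44 to -0.58, adjusted p = 0.0594). DESeq2 (adjusted p = 0.0439) and the fit without the low-count filter (0.031) called it, in a range of 0.031 to 0.216.

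IL18 and IL33 did not pass in either experiment. IL18, a caspase 1 substrate that epithelia make constantly, had 33, 39.6 and 43.3 CPM with smTEADi, against 45.2, 40.8 and 42.4 CPM with Vehicle (-0.14 ± 0.12, 95% interval -0.40 to 0.12, adjusted p = 0.458). It had 45.1, 37.9 and 46.7 CPM with pTEADi, against 44.7, 40.4 and 42 CPM in Control (0.03 ± 0.10, 95% interval -0.19 to 0.25, adjusted p = 0.859). The groups overlapped in both experiments, and these were the narrowest intervals among the cytokines. IL33, a nuclear alarmin, had 24 to 39 counts per smTEADi library and 12 to 32 per Vehicle library (0.53 ± 0.42, adjusted p = 0.436). It had 8 to 17 counts per pTEADi library and 4 to 14 per Control library (0.27 ± 0.55, adjusted p = 0.759). At this depth the intervals for IL33 were wide, at -0.41 to 1.48 for smTEADi and -0.92 to 1.46 for pTEADi.

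IL1RN rose in both experiments, to about 2-fold. With smTEADi it had 655, 352 and 358 CPM, against 227, 233 and 214 CPM with Vehicle. All smTEADi libraries exceeded all Vehicle libraries, and smTEADi 1 was the highest by far. The log2 fold change was 1.03 ± 0.22 (adjusted p = 0.0401), and it was 0.67 without smTEADi 1 (adjusted p = 0.0229). The call was lost without smTEADi 3 (1.16, adjusted p = 0.0518), Vehicle 1 (1.03, 0.146) or Vehicle 3 (0.99, 0.192), fits in which 0 of all genes passed, and with a replicate block (0.96, 0.0847). Over all alternatives the adjusted p ranged from 5.21e-05 to 0.192.

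With pTEADi, IL1RN had 365, 442 and 425 CPM, against 155, 247 and 147 CPM in Control. The groups did not overlap, although Control 2 was higher than the other Control libraries for the antagonist as it was for the agonists. On the log2 scale this was 1.17 ± 0.17 (adjusted p = 0.000533; 1.03 to 1.44 when single libraries were left out). The difference between the effects was 0.14 ± 0.32 (95% interval -0.54 to 0.83, adjusted p = 0.961). IL1RN encodes secreted and intracellular forms from different first exons, and gene counts do not tell them apart.

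IL36RN, the antagonist of interleukin 36, did not pass in either experiment. It had 283, 318 and 208 counts with smTEADi (14.7 to 20.8 CPM), against 99, 407 and 205 with Vehicle (6.79 to 28.6 CPM), and Vehicle spanned the whole smTEADi range (0.19 ± 0.41, 95% interval -0.72 to 1.11, adjusted p = 0.792). It had 9.49, 7.58 and 9.24 CPM with pTEADi, against 7.63, 13 and 6.93 CPM in Control (-0.06 ± 0.23, 95% interval -0.56 to 0.44, adjusted p = 0.865). Groups overlapped in both cases, and the sign of the change turned when single libraries were left out.

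**Figure D2:**
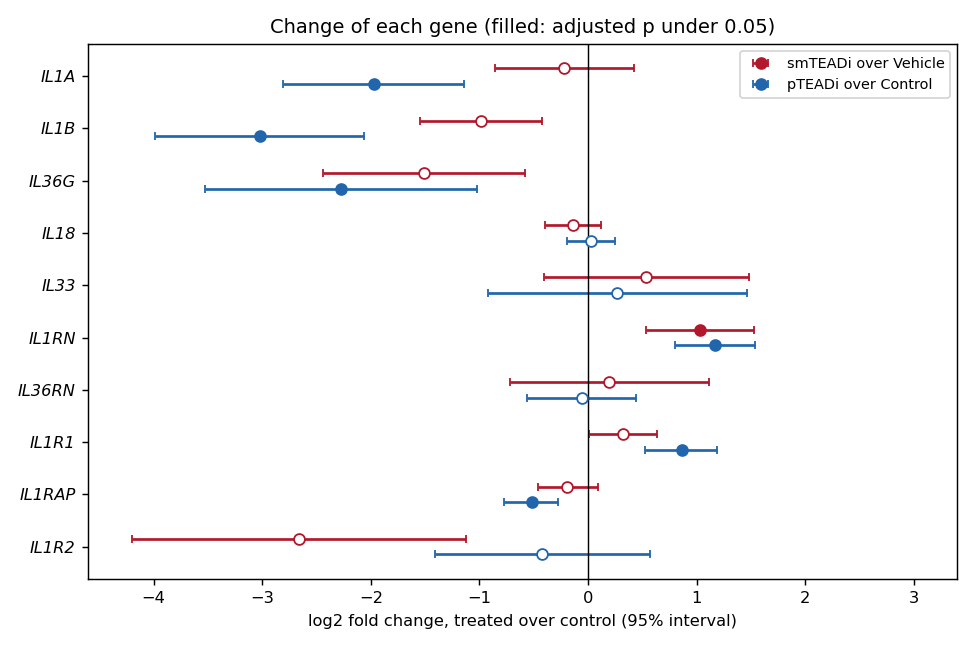
Log2 fold change of each gene (horizontal axis) with its 95% interval, smTEADi over Vehicle and pTEADi over Control, filled where the adjusted p was under 0.05. IL1RN is the filled point right of 0 in both comparisons (1.03 and 1.17), and IL1B is the farthest to the left with pTEADi (-3.02).

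The ratio of antagonist to agonist transcript, computed per length in each library, is a description and was not tested. IL1RN over the sum of IL1A and IL1B was 39.8, 18 and 36.8 in the smTEADi libraries, against 11.8, 10.2 and 10.6 in the Vehicle libraries. It was 31.9, 56.6 and 48.6 in the pTEADi libraries, against 3.65, 2.87 and 6.21 in the Control libraries. Treated and control libraries did not overlap in either experiment, which follows from the parts of the ratio. In each experiment IL1RN was higher and the agonist sum lower in every treated library than in every control library. IL1RN outnumbered both agonists together in all 12 libraries. IL36RN over IL36G was 17.3, 13.6 and 7.42 with smTEADi, against 2.35, 4.58 and 3.13 with Vehicle. It was 4.9, 3.74 and 14.2 with pTEADi, against 1.17, 0.993 and 2.49 in Control. That ratio rests on as few as 4 counts of IL36G in a library. IL1A over IL1B was 3.77, 3.64 and 2.69 with smTEADi, against 1.49, 3.01 and 1.81 with Vehicle, and 1.27, 2.35 and 2.39 with pTEADi, against 1.01, 0.843 and 0.795 in Control.

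**Figure D3:**
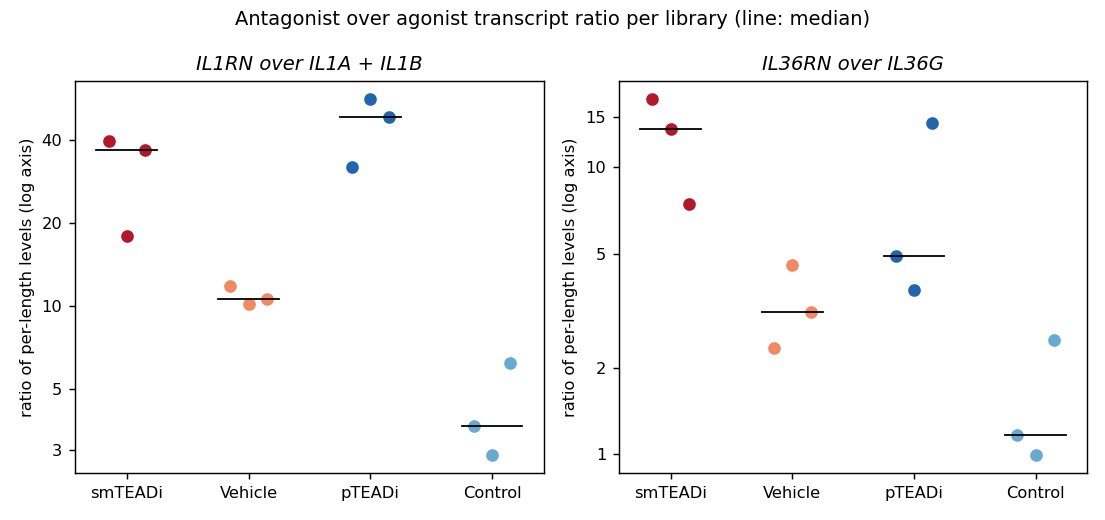
Ratio of per-length levels (vertical log axes) of IL1RN over IL1A plus IL1B, left, and of IL36RN over IL36G, right, in each library, with lines for group medians. For IL1RN the medians are 36.8 in smTEADi and 10.6 in Vehicle, and 48.6 in pTEADi and 3.65 in Control.

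The receptor genes moved in unlike ways. IL1R1, the signalling receptor, rose with pTEADi, to 23.7, 25.2 and 24 CPM, against 13.3, 10.5 and 16.5 CPM in Control. The groups did not overlap, and the pTEADi libraries were close together. On the log2 scale IL1R1 changed by 0.86 ± 0.15 (adjusted p = 0.0018; 0.71 to 1.03 when single libraries were left out). With smTEADi it had 30.7, 28 and 29.8 CPM, against 25.2, 26.7 and 19.4 CPM with Vehicle, again without overlap, and the change of 0.32 ± 0.14 did not pass (95% interval 0.01 to 0.63, adjusted p = 0.171).

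IL1RAP, the co-receptor shared by receptors for interleukins 1, 33 and 36, fell with pTEADi. It had 30.3, 32.1 and 39.6 CPM with pTEADi, against 51.4, 48.5 and 46.8 CPM in Control, with no overlap (-0.52 ± 0.11, adjusted p = 0.00498; -0.64 to -0.44 when single libraries were left out). With smTEADi it had 64.4, 62.4 and 51.3 CPM, against 74.8, 59.8 and 68.8 CPM with Vehicle, with overlap (-0.19 ± 0.12, 95% interval -0.46 to 0.09, adjusted p = 0.36). The receptor and its co-receptor thus changed in opposite directions with pTEADi.

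The decoy receptor IL1R2 was close to the limit of detection. It had 0, 8 and 2 counts in the smTEADi libraries, against 20, 25 and 20 in the Vehicle libraries, and entered the test only through the Vehicle group. The groups did not overlap, and the log2 fold change of -2.66 ± 0.69 did not pass (adjusted p = 0.0531). It passed with limma-voom (adjusted p = 0.0427), in the fit of all 12 libraries (0.0175), without the low-count filter (0.00794) and without smTEADi 2 (0.0439), in a range of 0.00794 to 0.203. With pTEADi it had 6, 9 and 18 counts, against 16, 16 and 13 in Control, and the groups overlapped (-0.42 ± 0.45, adjusted p = 0.542).

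All 10 genes passed the low-count filter in both experiments. With smTEADi, 1 rose and none fell, where 2.02% of all genes tested rose and 3.48% fell. At an unadjusted p under 0.05 there were 5 of the 10, where 27.8% of all genes were. DESeq2 called 2 as lower, where it called 7.18% of all genes lower, and limma-voom 1, where it called 3.56%. With pTEADi, 2 rose and 4 fell, where 12.7% of all genes rose and 13.6% fell. Libraries did not overlap for 5 of the 10 genes with smTEADi (2 higher and 3 lower, where 15.3% and 17.7% of all genes tested were) and for 6 with pTEADi (2 higher and 4 lower, where 20.1% and 21.8% were). In either direction the shares over all genes were 33.1% and 42%. Of the genes counted as lower, IL1R2 and IL36G with smTEADi and IL36G with pTEADi passed the low-count filter only through the controls, where they were higher, so these counts were favoured by the filter and are given as a description. The median log2 fold change of the 10 was -0.16 with smTEADi, beside 0.011 over all genes, and -0.24 with pTEADi, beside -0.001. For the difference between the effects, none of the 10 passed, where 0.0129% of 15460 genes did; 4 had an unadjusted p under 0.05, where 7.13% of all genes did, and DESeq2 also called none.

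Along the cluster, neighbours of IL1A and of IL1RN were read beside them. CKAP2L, a mitotic spindle gene next to IL1A, fell with smTEADi (-1.53 ± 0.24, adjusted p = 0.0365) and with pTEADi (-1.33 ± 0.14, adjusted p = 6.66e-05). PSD4, beyond IL1RN, rose with pTEADi (0.38 ± 0.10, adjusted p = 0.0113) and did not pass with smTEADi (0.41 ± 0.14, adjusted p = 0.106). The interleukin 36 agonist gene IL36B was tested with smTEADi alone (1.52 ± 0.71, adjusted p = 0.197) and reached at most 42 counts in a library. It passed the low-count filter only through smTEADi, where it was higher. IL37, IL36A and IL1F10, family members between them, and NT5DC4 had at most 7 counts in any library and were not tested.

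**Figure D4:**
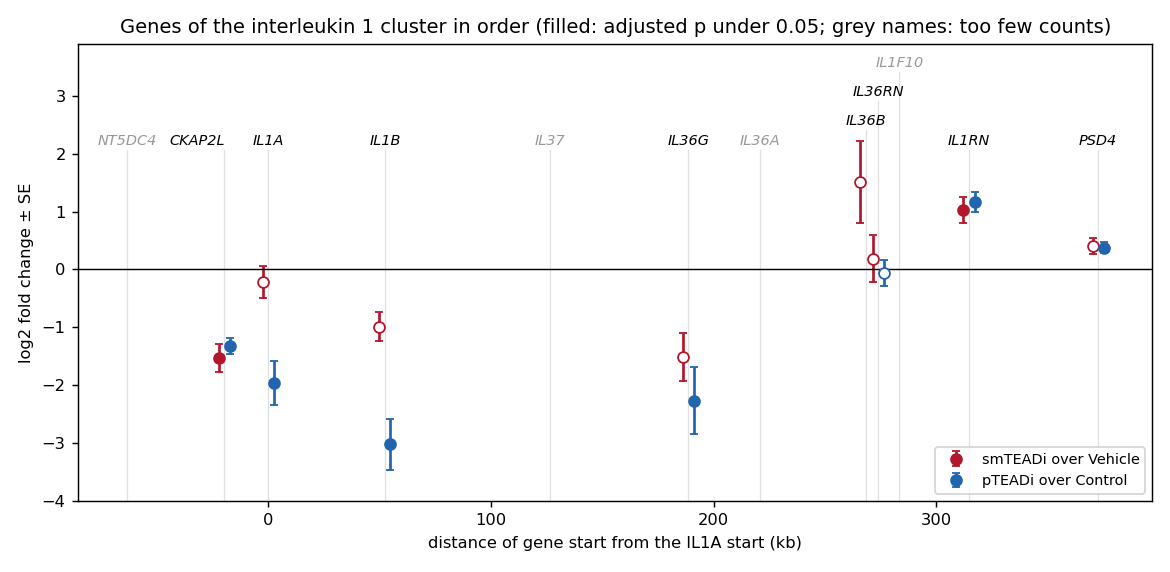
Log2 fold change ± SE (vertical axis) of genes of the interleukin 1 cluster against the distance of their start from that of IL1A in kb (horizontal axis), for smTEADi over Vehicle and pTEADi over Control, filled where the adjusted p was under 0.05. CKAP2L, IL1A, IL1B and IL36G lie below 0 in both comparisons, and IL1RN, 315 kb from IL1A, lies at 1.03 and 1.17.

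The rest of the pathway was followed in 4 lists, chosen with earlier results of these data known. Among 12 further ligands, receptors and binding proteins, 5 were tested with smTEADi and none passed (1 at an unadjusted p under 0.05, beside 27.8% of all genes, and 0 by DESeq2). The median was 0.65, beside 0.011 over all genes. IL18R1 and IL36B passed the low-count filter only through smTEADi, where they were higher, so that median was favoured by the filter. IL18R1 likewise entered the second experiment only through pTEADi. With pTEADi 4 were tested, and IL1RL2, the interleukin 36 receptor, rose (0.52 ± 0.18, adjusted p = 0.0468), where 12.7% of all genes rose. That call was lost with DESeq2, without the low-count filter and with a replicate block. It was also lost without pTEADi 1, 2 or 3, Control 1 or Control 2, and held without Control 3 (adjusted p = 0.0266). IL18R1, a chain of the interleukin 18 receptor (0.71 ± 0.58 with smTEADi and 0.84 ± 0.43 with pTEADi), IL18BP, which traps interleukin 18 (-0.33 ± 0.18 and -0.30 ± 0.17), and SIGIRR, an inhibitory receptor (0.65 ± 0.23 and 0.37 ± 0.20), did not pass. IL18RAP, the other interleukin 18 receptor chain, had 0 counts in all 12 libraries, and IL1RL1, the interleukin 33 receptor, at most 12.

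Of 16 receptor-proximal signalling genes, 15 were tested. With smTEADi none passed with edgeR (2 rose by DESeq2), at a median of 0.26, and 4 had an unadjusted p under 0.05, a share near the 27.8% of all genes. With pTEADi 2 of the 15 rose, a share near the 12.7% of all genes, and none fell, where 13.6% of all genes did. The median was 0.10. The 2 were TOLLIP, an adaptor that restrains IRAK signalling (0.65 ± 0.08, adjusted p = 0.000222), and the kinase IRAK4 (0.42 ± 0.12, adjusted p = 0.0211). Without pTEADi 1, 2 or 3, Control 1 or Control 2, only TOLLIP rose, and the call of IRAK4 was lost (adjusted p = 0.0517 to 0.0863). A fall of 1 gene was called with DESeq2, without the low-count filter and without Control 3. TOLLIP had a change of 0.39 ± 0.12 with smTEADi (adjusted p = 0.0858). IRAK1 (-0.22 ± 0.10 with smTEADi and -0.28 ± 0.10 with pTEADi), the ubiquitin ligase PELI1 (0.45 ± 0.14 and 0.19 ± 0.11) and TAB2 (0.35 ± 0.14 and -0.19 ± 0.09) did not pass.

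Of 20 genes of cytokine maturation and release, 16 were tested in each experiment. AIM2, a DNA sensor that assembles an inflammasome, fell with smTEADi (-1.39 ± 0.23, adjusted p = 0.0365) and with pTEADi (-1.29 ± 0.21, adjusted p = 0.000976). So did GSDMD, the pore through which interleukin 1 beta leaves cells (-0.41 ± 0.10, adjusted p = 0.0446, and -0.39 ± 0.09, adjusted p = 0.00594). With smTEADi these 2 were the only calls, where 3.48% of all genes fell and 2.02% rose. The count was 1 without smTEADi 1 and 0 without smTEADi 3, Vehicle 1 or Vehicle 3 and with a replicate block. When single libraries were left out, the smTEADi call of GSDMD held only without Vehicle 2 (adjusted p = 0.0422). It was lost without smTEADi 2 as well (0.0768). With pTEADi 3 of the 16 rose and 4 fell, where 12.7% of all genes rose and 13.6% fell. The inflammasome adaptor PYCARD (0.58 ± 0.10, adjusted p = 0.00115), the gasdermin GSDMA (3.21 ± 0.38, adjusted p = 0.000152) and NINJ1, which ruptures dying cells (0.41 ± 0.11, adjusted p = 0.0202), rose. GSDME (-0.66 ± 0.17, adjusted p = 0.0123) and S100A13, a partner in the export of interleukin 1 alpha (-0.44 ± 0.15, adjusted p = 0.0478), fell beside AIM2 and GSDMD. Only 2 fell without pTEADi 2 or Control 1, as GSDME was then lost (0.0712 and 0.0501). When single libraries were left out, the call of S100A13 held only without Control 3 (0.00267). That of NINJ1 was lost without pTEADi 1 (0.0688) or pTEADi 2 (0.075). CASP1 itself did not pass (-0.18 ± 0.15 with smTEADi, adjusted p = 0.472, and 0.30 ± 0.12 with pTEADi, adjusted p = 0.0799). NINJ1, S100A13 and CASP1 were named after their values were seen. The medians were -0.17 with smTEADi and 0.04 with pTEADi.

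The last list held 40 genes known to be induced by interleukin 1 family cytokines in epithelial cells, of which 28 were tested with smTEADi and 29 with pTEADi. With smTEADi only the neutrophil chemokine CXCL1 fell (-2.68 ± 0.58, adjusted p = 0.04), where 3.48% of all genes fell. None rose, where 2.02% did, at a list median of -0.01 beside 0.011 over all genes. At an unadjusted p under 0.05 there were 15 of the 28 in either direction, where 27.8% of all genes were. Of these, CXCL8, CXCL1, PTGS2 and MMP3 passed the low-count filter only through Vehicle, where they were higher. CCL20, not among the 15, passed only through smTEADi. DESeq2 called 2 genes as higher, limma-voom 1, the fit of 12 libraries 4 and the fit without the low-count filter 5. The fit of 12 libraries called 2 as lower. The call of CXCL1 was lost with DESeq2, with a replicate block and without smTEADi 1, smTEADi 3, Vehicle 1 or Vehicle 3, while 5 genes rose without Vehicle 2. CXCL1 had 1, 6 and 2 counts in smTEADi and 17, 15 and 28 in Vehicle, and passed the low-count filter only through Vehicle, where it was higher. CXCL1 averaged 0.203 ± 0.168 CPM in smTEADi and 1.38 ± 0.472 CPM in Vehicle, and 0.452 ± 0.212 CPM in pTEADi and 6.39 ± 4.05 CPM in Control (SD, n = 3 each; -3.78 ± 0.55 with pTEADi, adjusted p = 0.000545). With pTEADi 9 of 29 fell, where 13.6% of all genes did, and 7 rose, where 12.7% did, at a median of -0.36 beside -0.001 over all genes. CXCL8, CXCL1, LIF and CCL20, which fell, and PTGS2, BIRC3 and SAA1, which were not called, passed the low-count filter only through Control. They were higher there, so the count of falls and the median were favoured by the filter and are given as a description. Genes named only for their route past the filter were named after their values were seen.

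Those that fell with pTEADi were chemokines, the cytokine LIF, the adhesion gene ICAM1 and NF-kB genes. All 9 are named here, 8 of them after their values were seen. Beside CXCL1 they were CXCL8 (-4.09 ± 0.81, adjusted p = 0.00329), LIF (-3.09 ± 0.64, adjusted p = 0.00436), CCL20 (-1.92 ± 0.59), TNFAIP3, a feedback inhibitor of NF-kB (-1.71 ± 0.34), ICAM1 (-1.66 ± 0.46), RELB (-0.95 ± 0.22), NFKB2 (-0.54 ± 0.15) and NFKB1 (-0.27 ± 0.09). Those that rose included the S100 genes S100A7 (2.04 ± 0.10, adjusted p = 1.22e-06), S100A8 (1.15 ± 0.12, adjusted p = 6.66e-05) and S100A9 (1.11 ± 0.15, adjusted p = 0.000417), which squamous cells also make as they differentiate. The others were the proteases MMP10 (1.57 ± 0.11, adjusted p = 1.25e-05) and MMP1 (0.90 ± 0.14), the cytokine TSLP (0.71 ± 0.24) and the co-factor NFKBIZ (0.42 ± 0.10). MMP1, TSLP and NFKBIZ were named after their values were seen. When single libraries were left out, the call of TSLP held only without Control 3 (adjusted p = 0.00961). That of NFKBIZ was lost without pTEADi 2 (0.0554) or Control 1 (0.0632). With smTEADi the 3 S100 genes had changes of 0.94 ± 0.24, 0.92 ± 0.28 and 0.94 ± 0.31, which did not pass (adjusted p = 0.051, 0.0766 and 0.0887). The count of genes that fell with pTEADi was 5 without pTEADi 2 and 14 without Control 3. Control 2 was the highest Control library for all 9, and without it 6 genes fell. CXCL8 was then at -2.80 (adjusted p = 0.00156), LIF at -2.38 (0.0104) and TNFAIP3 at -1.03 (2.03e-05). The calls of CCL20 (-1.20, 0.167), ICAM1 (-1.06, 0.0754) and NFKB1 (-0.24, 0.0893) were lost. Such losses were not particular to Control 2. NFKB1 lost its call without any single library, and CCL20 kept it only without Control 3 (adjusted p = 0.00693). ICAM1 was also lost without pTEADi 2 or 3 (0.0947 and 0.0945). NFKB2 was lost without pTEADi 1, 2 or 3 (0.0632, 0.0529 and 0.0843). CXCL8, CXCL1, LIF and CCL20 reached 10 counts in at most 1 of 3 pTEADi libraries and passed the low-count filter only through Control, where they were higher.

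**Figure D5:**
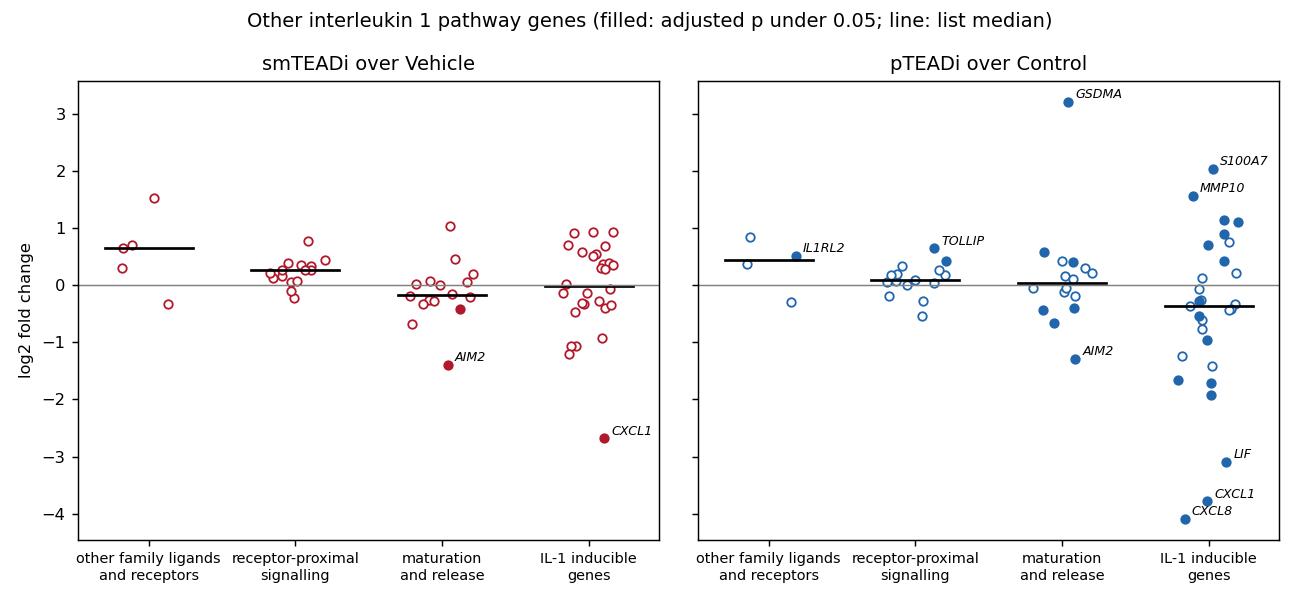
Log2 fold change (vertical axis) of each tested gene of the 4 pathway lists, smTEADi over Vehicle on the left and pTEADi over Control on the right, filled where the adjusted p was under 0.05, with lines for list medians. With pTEADi the inducible genes split, CXCL8 at -4.09 and S100A7 at 2.04 marking the ends.

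Markers of other cells and states were read beside these results. Over all genes tested, 2.02% rose and 3.48% fell with smTEADi, and 12.7% rose and 13.6% fell with pTEADi. Of 12 markers of differentiated squamous cells, 4 rose with smTEADi and 11 with pTEADi, and none fell. They summed to 71600 to 96300 CPM in smTEADi and 29800 to 54300 CPM in Vehicle, and to 46900 to 59200 CPM in pTEADi and 12900 to 23700 CPM in Control. Their part in the change of IL1RN was not tested. Of 14 macrophage and leukocyte markers, 5 had 0 counts in all libraries (CD163, AIF1, TYROBP, C1QA and C1QB), and PTPRC, which all leukocytes express, had at most 1. That list summed to 35.7 to 55.5 CPM in smTEADi and 35 to 45 CPM in Vehicle, and to 36.1 to 42.1 CPM in pTEADi and 47.9 to 73.5 CPM in Control, mostly from CD68 and CD74, and 2 of 5 tested, CSF1R and CD74, fell with pTEADi. Of 8 neutrophil markers, 4 had 0 counts throughout (CSF3R, FPR1, MPO and ELANE). Nearly all of that list's sum was S100A12, and it came to 18.7 to 53.3 CPM in smTEADi and 9.05 to 26 CPM in Vehicle, and to 20.3 to 28.1 CPM in pTEADi and 6.02 to 15.4 CPM in Control. S100A12 rose with pTEADi (1.33 ± 0.28, adjusted p = 0.00456). Of 6 endothelial markers KDR had 0 counts in all libraries, and VWF held nearly all of a sum of 36.2 to 63.7 CPM in smTEADi and 15.9 to 33.1 in Vehicle, and 30.8 to 42.5 in pTEADi and 13.2 to 21.3 in Control. VWF rose with pTEADi (1.19 ± 0.19, adjusted p = 0.000862). Fibroblast markers, mostly COL1A1 and with COL3A1 at 0, summed to 85.3 to 90.9 CPM in smTEADi and 77.2 to 97 in Vehicle, and 99.9 to 138 in pTEADi and 101 to 119 in Control, and FAP fell with pTEADi (-0.92 ± 0.25, adjusted p = 0.0173). Among the 10 squamous carcinoma markers CDH3 and EPCAM fell in both experiments and KRT17 fell and DSG3 rose with pTEADi. T and NK cell markers summed to at most 1.24 CPM, with CD3D, CD2 and NKG7 at 0. The part of these markers in the changes of the cytokine genes was not tested. Whether reads from the host animal were set apart is not given in the sources used here.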

How the data were processed

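Poly-T selected messenger RNA from 12 xenograft tumour samples was read in pairs of 150 bp. The authors, per the labels, mapped them to GRCh38 with STAR 2.7.9a and Gencode 38 gene models and estimated counts with RSEM 1.3.1, per the submitters' processing notes. What the authors deposited are RSEM's expected counts, with no scaling, of which 6.77% to 7.27% per library were not whole. Both tables list the same 60649 identifiers, of which 60463 had a symbol in Gencode 44 (GRCh38), the source of names, positions and merged exon lengths.

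Samples were grouped by their labels. Counts were rounded, filtered by filterByExpr (minimum count 10), scaled by TMM and tested two-sided in R 4.3.3 with edgeR 4.0.16, each treatment against its own controls. The difference of the effects was the pTEADi effect less the smTEADi effect in a fit of 12 libraries. The SE is the log2 fold change divided by the square root of F. Printed CPM use TMM factors of all 12 libraries. TPM used unscaled counts. P-values measure the spread between samples, which may be technical. No library repeated another: within groups, pairs differed by 7.42 to 34 times the variance of counting noise. Equal replicate numbers were not treated as pairing.

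The genes studied, the lists, the motifs and the rule for named genes were chosen with earlier results of these data known. The rule took all 10 genes, up to 5 genes per list with the smallest p, genes called in both experiments, genes neighbouring the cluster, and the 5 protein-coding genes nearest in pattern to IL1A, IL1B and IL1RN. SOD2 of the inducible list matched no single identifier. Alternatives were RLE scaling, no low-count filter, DESeq2 1.42.0, limma-voom (limma 3.58.1), unrounded counts, 1 fit of 12 libraries, a replicate block, and omission of single libraries. Tests were first checked on simulated counts with known changes.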

Additional observations from a re-analysis of the deposited data

How the results depend on the processing

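Counts of called genes moved most. With smTEADi, 816 genes passed, against 2101 without the low-count filter, 1868 with DESeq2, 2303 in 1 fit of 12 libraries and 0 with a replicate block, and 0 to 1622 when single libraries were left out. With pTEADi, 3864 passed, and 2325 to 4379 when single libraries were left out. For the difference, 2 passed, against 377 without the filter, 37 with DESeq2, 0 with the block, and 0 to 20 when single libraries were left out. The studied genes that rose with smTEADi numbered 1, 0 with the block and 0 to 1 when single libraries were left out. Those that fell numbered 0, against 3 without the filter, 2 with DESeq2, 1 with limma-voom, 1 in the 12-library fit, and 0 to 1 when single libraries were left out. With pTEADi 2 rose and 4 fell, and these counts stayed within 1.5 times under every alternative. Numbers pair nothing in the labels: deviations of equal numbers correlated at -0.183 to 0.168, and the block, which lost IL1RN with smTEADi (0.96, adjusted p = 0.0847), changed no other call among the 10 genes. Signs that turned were all of changes that had not passed. With smTEADi, IL1A was 0.04 without smTEADi 3 and IL36RN -0.18 without Vehicle 1. With pTEADi, IL18 was -0.02 without pTEADi 3 and -0.0038 without Control 2, IL33 -0.17 without pTEADi 2 and -0.10 without Control 1, and IL36RN 0.04 without pTEADi 2 and 0.27 without Control 2. For the difference, IL1RN was -0.0017 without smTEADi 2, IL33 0.02 without smTEADi 3 and 0.14 without Control 3, and IL36RN 0.12 without Vehicle 1 and 0.08 without Control 2. When single libraries were left out, the ranges were -0.46 to 0.04 for IL1A and -0.18 to 0.85 for IL36RN with smTEADi, -0.02 to 0.13 for IL18, -0.17 to 0.67 for IL33 and -0.23 to 0.27 for IL36RN with pTEADi, and -0.0017 to 0.50 for IL1RN, -0.74 to 0.14 for IL33 and -0.91 to 0.12 for IL36RN for the difference. The cause was not tested. Depth limits IL1R2, IL33 and IL36G, which had 0 to 78 counts per library.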

Other observations

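Some of the 10 genes varied together over the 12 libraries, after log2 CPM were centred on the mean of each experiment. IL1B correlated at r = 0.91 with IL1A, at 0.85 with IL36G, at -0.70 with IL1RN and at -0.95 with IL1R1. Over the 6 pTEADi and Control libraries alone, IL1B correlated with these genes at 0.96, 0.92, -0.75 and -0.98, in the same order. Over the 6 smTEADi and Vehicle libraries alone the values were 0.50, 0.66, -0.77 and -0.78. These points share treatment groups, so each r includes the difference between treated and control libraries, and is a description.

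By the same measure over 12 libraries, the protein-coding genes of at least 5 CPM nearest to IL1B among 10627 searched were BCAR3, an adaptor of integrin signalling (r = 0.993), the fibronectin receptor subunit ITGA5 (0.973), SF3B2 (0.972), PRR15 (0.969) and SPECC1 (0.964). Those nearest to IL1A were ATF4, the transcription factor of the integrated stress response (0.963), the metallothionein MT1X (0.962), the hypoxia-responsive genes ADM (0.959) and ANGPTL4 (0.959), and the translation repressor EIF4EBP1 (0.957). Those nearest to IL1RN were the glycosyltransferase B3GALT5 (0.991), CLCA4 (0.986), the tight junction gene TJP3 (0.985), MAL (0.985) and TMPRSS11B (0.979). None of the 5 genes nearest to IL1A was among the 5 nearest to IL1B. With only 5 of 10627 genes taken for each, an absence of shared genes does not show that the patterns differ.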
